A study of Solanum lycopersicum with 95 samples.

Results

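The 200 genes described here were those that stood furthest above their morning levels 12 h into the experiment in fruits of tomato (Solanum lycopersicum) cultivar Foundation that received no far-red light (FR). They were chosen by a ranking of CPM (counts divided by the library total and scaled to 1000000) in No FR fruits: among 13947 of 34075 genes with a mean of at least 5 CPM at 12 h, the 200 with the largest log2 ratio of the 12 h mean plus 1 to the highest mean plus 1 among 0, 24, 48 and 96 h were taken. The 2 treatments were Leaf FR, in which leaves, stem and apex received 77 ± 1 µmol per m2 per s of additional FR (700 to 800 nm), and No FR, in which plants received red and white light only. Plants of both treatments received 258 ± 5 µmol per m2 per s of red and white light, and the fruits of both treatments were kept from FR behind a light-tight curtain, so Leaf FR fruits were themselves never irradiated with FR. Leaves and immature green fruits were sampled at 6 times (0, 6, 12, 24, 48 and 96 h) counted from when FR began, 63 days after sowing. Fruits were 10 ± 1 days after anthesis when FR began and older at the later times. Each organ, treatment and time had 4 libraries from separate plants, except that Leaf FR leaves at 12 h had 3. No plant was sampled more than once. The study's methods give 4 plants per treatment and time for both organs, so leaf and fruit libraries of a treatment and time share plants. The labels do not say which leaf goes with which fruit. In a photoperiod of 16 h, the samples of 0, 24, 48 and 96 h (the mornings) came 4 h after lights-on, those of 6 h came 10 h after lights-on, and those of 12 h came at 16 h, at the end of the light period.

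Many plant transcripts rise and fall with the time of day, under the joint control of the circadian clock, light, temperature and the supply of sugars. Genes of carbohydrate metabolism are among those known to vary over the day in plants. Leaves fix carbon only in the light and export sucrose to growing fruits by day and by night. The names of 2 of the 200 genes are known from the study's own tables: SUS1 (Solyc12g009300), a sucrose synthase, which cleaves sucrose into fructose and a nucleotide sugar in importing organs, and SlSS1 (Solyc03g083090), a starch synthase, which lengthens the glucan chains of starch. The tables used here pair no other of the 200 identifiers with a name, so the remaining genes are given by identifier without a role.

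Libraries held 14769415 to 17957406 counts. The time of day, the day and the harvest round cannot be told apart for the 12 h samples, since a single evening was sampled and all plants of a time point were harvested within 10 minutes, whereas the mornings came from 4 separate days. Fruit age differed too, since the fruits grew older from the first morning at 0 h to the last at 96 h. These are whole-organ samples, in which fewer cells of a type and less RNA per cell cannot be told apart. The library labelled No FR leaf 12 h replicate 2 stood apart. Over 11408 genes outside the list, its deviations from the leaf mean correlated with the mean profile of the other morning leaf libraries at r = 0.37 and with those of 6 h and 12 h at r = -0.53 and -0.14, whereas the other 6 leaf libraries of 12 h correlated with the morning profile at -0.61 to -0.77 (across genes, which are not independent). Of those other libraries, No FR replicate 1 correlated more with the 6 h profile (r = 0.66) than with the 12 h profile (r = 0.47). The rest correlated with the 12 h profile at 0.76 to 0.90. The leaf results that turn on No FR leaf 12 h replicate 2 are given with and without it.

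In the No FR fruits that chose the genes, the log2 ratio of 12 h to the highest morning mean was 3.93 for the first gene, Solyc06g006000, 2.38 for the second, Solyc01g005300, and 0.57 at the median of the 200. The last members lay at 0.41, a ratio of 1.33, and the first gene outside the list lay at 0.41 too, so the list has no natural edge. Of the ranked genes, 4412 had a 12 h mean above every morning mean. The 12 h means of the members spanned 5.13 to 4937 CPM in No FR fruits with a median of 31.5, 27 lying under 10 CPM and 34 at 100 CPM or more. CPM are not scaled to gene length, so levels are compared here within a gene and not between genes. By the chromosome number in the identifier, 36 of the 200 (18%) lay on chromosome 4, which held 8.49% of the ranked genes. The other chromosomes had 5 to 21 members each, and 8 pairs of members had neighbouring identifiers.

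The mean of log2(CPM + 1) over the 200 genes, taken as the level of the list in a library, was 5.00 to 5.33 in the 4 Leaf FR fruits of 12 h and 4.17 to 4.33 in the 16 Leaf FR fruits sampled in the morning. At 6 h it was already 5.16 to 5.25 in Leaf FR fruits. In No FR fruits, whose 12 h and morning values entered the choice, the level was 5.13 to 5.18 at 12 h and 4.08 to 4.33 in the morning, and at 6 h, which the choice did not use, it was 5.02 to 5.28. Fruits of 6 h and 12 h thus overlapped in level, and neither overlapped with the mornings. In Leaf FR leaves the level was 4.68 to 5.02 at 12 h, 4.89 to 5.08 at 6 h and 2.93 to 3.46 in the morning. No FR leaves had levels of 4.85, 3.31, 5.07 and 4.76 in replicates 1 to 4 of 12 h, 4.92 to 5.07 at 6 h and 2.93 to 3.54 in the morning, so that replicate 2 of 12 h lay within the morning range and the other 3 above it.

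**Figure D1:**
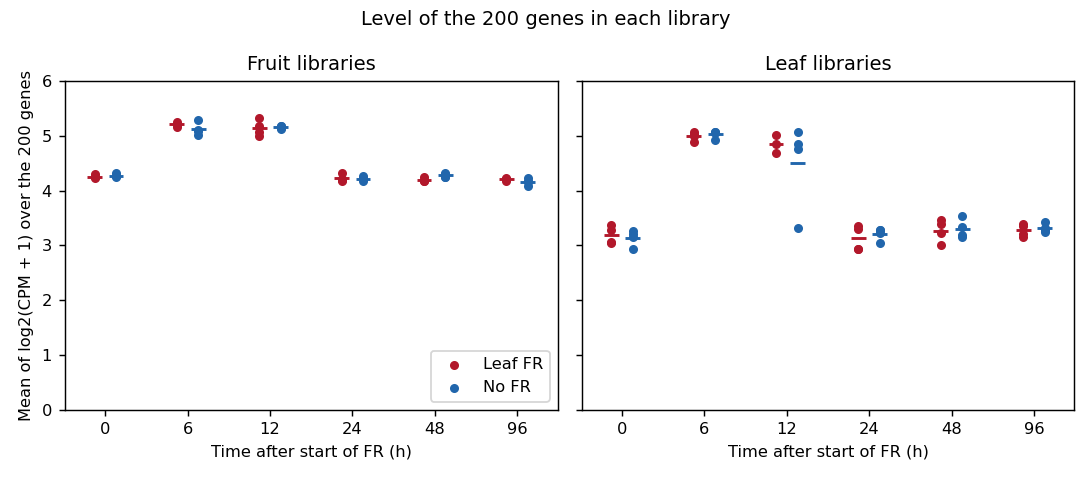
Mean of log2(CPM + 1) over the 200 genes (vertical axis) in each fruit (left) and leaf (right) library against hours after the start of FR, evenly spaced; points are libraries and short lines are group means. Levels at 6 h and 12 h lie above every morning level in both organs, except for 1 No FR leaf library of 12 h at 3.31.

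Leaf FR fruits took no part in the choice and served as the test of the 12 h rise in fruits. Of the 200 genes, 190 were higher at 12 h than the mean of the 4 mornings (edgeR quasi-likelihood test, adjusted p under 0.05), 0 were lower and 10 did not pass. Among all 18945 genes tested, 2959 (15.6%) were higher. The change of the 200 ran from -0.13 to 4.60 on the log2 scale with a median of 0.83 (1.78-fold), against a median of 0.01 over all genes, and 73 rose more than 2-fold. DESeq2 called 189 higher and 0 lower, against 2810 and 2960 of all genes. In edgeR 194 members passed an unadjusted p of 0.05 in either direction, against 7766 of all genes. Required to be higher than each of the 4 mornings in separate contrasts, 136 of the 200 passed, against 2.56% of all genes. For 138 of the 200, all 4 libraries of 12 h lay above all 16 morning libraries, against 3.67% of genes with a mean of 1 CPM or more. In the No FR fruits that chose the list the same held for 139 (background 1.77%), which the choice itself favours. A list of 200 drawn by the same ranking from Leaf FR fruits shared 123 genes (61.5%) with it.

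Solyc06g006000 led the ranking. It stood at 96.8, 126, 109 and 89.3 CPM in Leaf FR fruits at 12 h, against 3.08 to 8.14 CPM (median 3.71) in the 16 Leaf FR fruits of the mornings. Its 12 h and morning libraries were far apart, and it rose by 4.60 ± 0.09 (log2, SE), or 24.2-fold (edgeR quasi-likelihood, Benjamini-Hochberg adjusted p = 7.5e-21). It was also at 93.2, 83.1, 93.6 and 82.9 CPM at 6 h, and the change of 0.19 ± 0.12 between 12 h and 6 h did not pass the edgeR test (adjusted p = 0.37). Solyc01g005300 stood at 75.9, 82.1, 90.5 and 87.6 CPM in Leaf FR fruits at 12 h, against 5.66 to 11.4 CPM in the mornings, a rise of 3.24 ± 0.06 (edgeR adjusted p = 7.5e-21). Its 6 h libraries lay higher still, at 111 to 130 CPM, and it was lower at 12 h than at 6 h by a log2 change of -0.58 ± 0.08 (edgeR adjusted p = 0.00019).

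**Figure D2:**
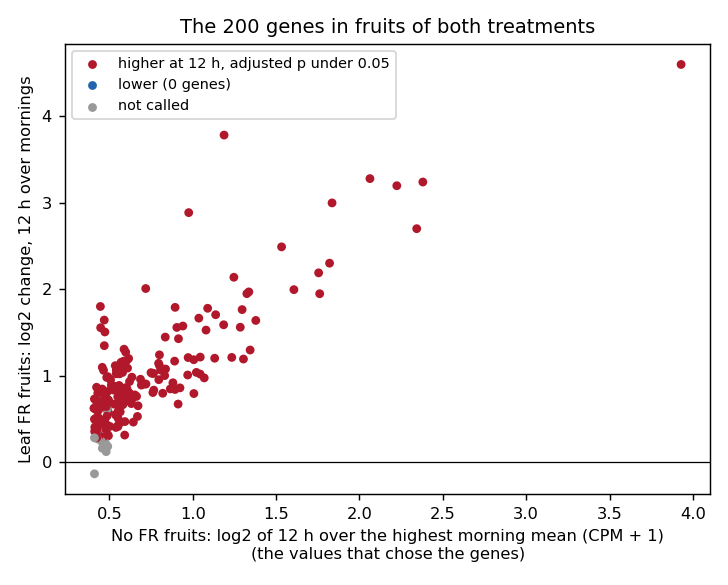
For each of the 200 genes, the log2 change from the mornings to 12 h in Leaf FR fruits (vertical axis) against the log2 ratio of 12 h to the highest morning mean in No FR fruits that chose it (horizontal axis). Points are coloured by the edgeR call in Leaf FR fruits; 190 of the 200 are called higher, none lower, and 1 lies below zero.

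At 6 h, 10 h into the light period, most of the genes were up already. In Leaf FR fruits 163 were higher at 6 h than in the morning and 1 was lower (edgeR, adjusted p under 0.05), against 8.15% and 7.03% of all genes, with a median log2 change of 0.90. The 190 genes that were higher at 12 h comprised 158 that were also higher at 6 h, 31 that were not called at 6 h, and 1, Solyc09g092130, that was lower at 6 h by a log2 change of -0.32, a call that was lost without Leaf FR fruit 6 h replicate 2. Directly compared in Leaf FR fruits, 20 genes were higher at 12 h than at 6 h, 39 were lower and 141 were not called, against 1.84% and 2.93% of all genes, with a median log2 change of -0.09. The count of 20 depended on single libraries, falling to 13 without 6 h replicate 1, 10 without 12 h replicate 2 and 11 without 12 h replicate 3. By group means, 12 h exceeded 6 h for 95 of the 200 in Leaf FR fruits and for 117 in the No FR fruits that chose them. The fitted change from 6 h to 12 h in Leaf FR fruits was positive for 89 of the 200, and for 50.1% of all genes. With 141 of the 200 not called, the list as a whole was not shown to peak in the evening. The genes are better described by the rule, as higher at 12 h than on any morning in No FR fruits.

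The genes with the largest changes between the 6 h and 12 h samples ran in opposite directions. Solyc04g007470 stood at 12.9, 13.7, 18.3 and 14.8 CPM in Leaf FR fruits at 12 h, against 3.44, 2.66, 3.52 and 3.86 CPM at 6 h, a rise of 2.08 ± 0.13 (log2, SE, edgeR adjusted p = 4.9e-10). Its 6 h libraries lay within its morning range of 2.07 to 4.82 CPM, so it was raised at the end of the light period and not before. In Leaf FR leaves it stood at 79.1, 111 and 80.4 CPM at 12 h, against 3.20 to 8.85 CPM at 6 h, a rise of 4.04 ± 0.37 (edgeR adjusted p = 3.8e-07). Its leaf mornings lay at 2.05 to 6.06 CPM, so 6 h reached above them in part, and the change of 0.30 ± 0.26 between 6 h and the mornings did not pass (edgeR adjusted p = 0.40). Solyc07g045180 was the next in this direction, with 28.3, 31.3, 45.3 and 32.7 CPM in Leaf FR fruits at 12 h, against 10.1 to 15.4 CPM at 6 h, a rise of 1.35 ± 0.14 (edgeR adjusted p = 1.8e-06).

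Solyc03g081240 ran the other way. It stood at 13.9, 14.1, 15.8 and 14.5 CPM in Leaf FR fruits at 12 h, against 48.0, 44.3, 48.3 and 50.7 CPM at 6 h, a log2 change of -1.77 ± 0.11 (edgeR adjusted p = 4.5e-10). Its mornings lay between 2.61 and 4.99 CPM, so the 12 h libraries were above the mornings and below 6 h without overlap. In Leaf FR leaves it stood at 10.1, 10.3 and 12.0 CPM at 12 h, against 99.9 to 133 CPM at 6 h, a log2 change of -3.44 ± 0.32 (edgeR adjusted p = 3.9e-07). Solyc01g096420 followed with 8.36 to 14.4 CPM in Leaf FR fruits at 12 h, against 28.5 to 32.7 CPM at 6 h, a log2 change of -1.62 ± 0.15 (edgeR adjusted p = 1.9e-07).

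**Figure D3:**
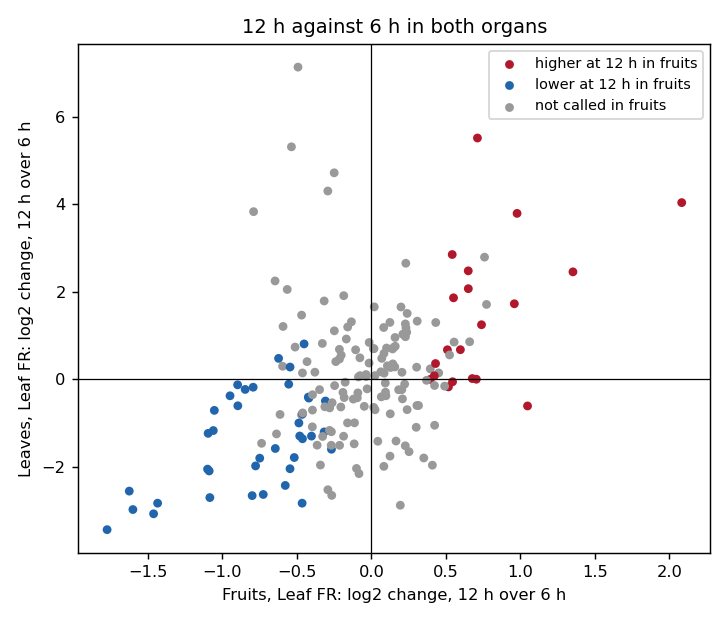
The log2 change from 6 h to 12 h in Leaf FR leaves (vertical axis) against that in Leaf FR fruits (horizontal axis) for the members tested in both organs, coloured by the edgeR call in fruits. Of the 20 called higher at 12 h in fruits 11 were higher in leaves, and of the 39 called lower in fruits 23 were lower in leaves, with none called in opposite directions. The same shares over all genes were not computed.

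Leaves shared much of the rise. In Leaf FR leaves 138 of 195 members tested were higher at 12 h than in the morning and 3 were lower (edgeR, adjusted p under 0.05), against 15.9% and 13.9% of all genes, with a median log2 change of 1.36. Without Leaf FR leaf 12 h replicate 1 or replicate 2, 1 was lower. In No FR leaves 116 of 197 were higher and 1 was lower, against 10.6% and 8.67% of all genes, with a median of 1.01. Without replicate 2 of 12 h, 128 were higher and 4 lower with a median of 1.18, against 2424 and 2378 of all genes. Across all single libraries left out 85 to 128 were higher, the lowest without replicate 3 of 12 h. The count of 1 lower became 2 without 12 h replicate 1 or 4 or 24 h replicate 3 or 4. The 138 and 116 had 111 genes in common, or 120 without replicate 2. Every 12 h library lay above all 16 mornings for 117 members in Leaf FR leaves, with 3 libraries at 12 h (background 18.6%), and for 14 in No FR leaves, with 4 (background 3.25%), or 121 without replicate 2 (20.0% of genes of that level). Taken singly in No FR leaves, 144, 160 and 142 members lay above all mornings in replicates 1, 3 and 4 of 12 h, but 26 did in replicate 2. The share of all genes above the mornings in a single library was not computed, so these counts compare libraries only. Library scaling by the trimmed mean of M-values (TMM) differed with time in leaves, with factors of 1.16 to 1.32 at 12 h, 1.11 to 1.38 at 6 h and 0.68 to 1.11 in the morning in Leaf FR leaves, and of 0.95 to 1.05 over all times in Leaf FR fruits. With these factors applied, the level of the list in Leaf FR leaves was 4.44 to 4.66 at 12 h, 4.49 to 4.89 at 6 h and 3.20 to 3.45 in the morning, still without overlap with the mornings. In No FR leaves it was 4.31, 3.39, 4.77 and 4.53 in replicates 1 to 4 of 12 h, 4.62 to 4.91 at 6 h and 3.19 to 3.51 in the morning.

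The 6 h samples of leaves resembled those of fruits in that most of the list was already up. In Leaf FR leaves 129 members were higher at 6 h than in the morning and 13 lower (background 20.8% and 19.1%), and in No FR leaves 125 were higher and 10 lower (background 18.4% and 18%), with medians of 1.30 and 1.39 on the log2 scale (edgeR). The count of 10 fell to 5, 4 and 6 without No FR leaf 6 h replicates 1, 3 and 4. Between 12 h and 6 h, compared in leaves after the data were seen, 27 members were higher and 46 lower in Leaf FR leaves (background 9.43% and 8.12%). The same comparison in No FR leaves gave 17 higher and 55 lower (background 7.23% and 4.87%). Without replicate 2 of 12 h it gave 16 and 46, against 794 and 724 of all genes. No member was called in opposite directions in Leaf FR fruits and in the leaves of either treatment in this comparison. Of the 39 lower at 12 h than at 6 h in Leaf FR fruits, 23 were lower in Leaf FR leaves and 25 in No FR leaves, or 22 without replicate 2 of 12 h. How often calls ran the same or opposite ways in both organs over all genes was not computed. These shared counts therefore describe the members only.

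Solyc06g006000, the first of the list, had its highest levels in leaves at 6 h, with 269 to 299 CPM in Leaf FR leaves and 236 to 369 CPM in No FR leaves. At 12 h it stood at 29.8, 42.4 and 39.6 CPM in Leaf FR leaves, against 0.12 to 2.30 CPM in the mornings, a rise of 5.08 ± 0.26 (log2, SE, edgeR adjusted p = 2.6e-11). In No FR leaves it stood at 49.6, 0.985, 58.9 and 41.7 CPM in replicates 1 to 4 of 12 h, against 0.443 to 2.40 CPM in the mornings, so replicate 2 lay within the mornings. The rise was 4.70 ± 0.41 with that library (edgeR adjusted p = 4.1e-07) and 5.10 ± 0.23 without it (edgeR adjusted p = 2.9e-12). The fitted rise in No FR leaves was 6.02 ± 0.59 for Solyc06g005680 (edgeR adjusted p = 1.9e-06), which stood at 8.95, 0.0616, 6.05 and 6.06 CPM in replicates 1 to 4 of 12 h. Without replicate 2 it was 6.42 ± 0.44 (edgeR adjusted p = 1.3e-09). Its morning libraries held 0 to 0.248 CPM, a few counts at most, so the size of that change is poorly set.

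A few members were lower at 12 h than in the morning in leaves, but higher in fruits. Solyc04g049670 stood at 117, 116 and 107 CPM in Leaf FR leaves at 12 h, against 84.6 to 183 CPM in the mornings, a log2 change of -0.76 ± 0.18 (edgeR adjusted p = 0.0027). No FR leaves had 128, 91.0, 103 and 111 CPM at 12 h, against 96.8 to 182 CPM in the mornings, a log2 change of -0.57 ± 0.13 (edgeR adjusted p = 0.0037), and -0.62 ± 0.14 without replicate 2. The CPM ranges overlapped in both, and the TMM factors above enter these changes. At 6 h the gene was higher than in the morning in leaves. The rise was 0.44 ± 0.14 in Leaf FR leaves (edgeR adjusted p = 0.018) and 0.59 ± 0.12 in No FR leaves (edgeR adjusted p = 0.00046). In Leaf FR fruits the same gene stood at 166 to 205 CPM at 12 h, against 63.6 to 88.6 CPM, a rise of 1.21 ± 0.06 (edgeR adjusted p = 1.6e-12). Solyc12g040790 stood at 86.2, 107 and 165 CPM in Leaf FR leaves at 12 h, against 119 to 651 CPM in the mornings, a log2 change of -1.88 ± 0.56 (edgeR adjusted p = 0.016) that was no longer called without 12 h replicate 1 (-1.70) or replicate 2 (-1.77). In No FR leaves its change was -0.84 ± 0.63 (edgeR adjusted p = 0.38), or -2.00 ± 0.69 without 12 h replicate 2 (edgeR adjusted p = 0.037).

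The evening change of fruits was tested against that of leaves in Leaf FR plants, as a difference of log2 changes. It was higher in fruits than in leaves for 17 members, lower for 75 and not called for 108 (edgeR, adjusted p under 0.05), against 12.1% and 12.3% of all 20512 genes tested. The median difference was -0.50, against -0.02 over all genes. Leaf and fruit libraries were treated as independent in this test, although those of a time share plants. With leaf and fruit of the same time and replicate number taken as a block, 16 members were higher in fruits and 64 lower. That block called 2062 of all 20512 genes higher and 2075 lower. Lists of 200 drawn by the same ranking from leaves shared 54 genes (27%) with the fruit list in Leaf FR and 56 (28%) in No FR, or 58 (29%) without No FR leaf 12 h replicate 2. The 12 h mean exceeded every morning mean for 176 of the 200 genes in Leaf FR leaves (62.6% of ranked genes), 174 in No FR leaves (71.8%) and 194 in Leaf FR fruits (42.2%). Without replicate 2 of 12 h it did for 180 in No FR leaves (75.8%).

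The genes at the ends of this difference behaved unlike each other. Solyc07g008710 stood at 27.4, 28.7, 55.0 and 23.5 CPM in Leaf FR fruits at 12 h, against 1.61 to 7.30 CPM in the mornings, and at 0.186, 0.360 and 0.413 CPM in Leaf FR leaves at 12 h, against 0 to 1.13 CPM. Its change was higher in fruits by 3.57 ± 0.63 (log2, SE, edgeR adjusted p = 4.2e-05), with leaf levels of a few counts at every time. Solyc12g040790 differed by 2.59 ± 0.51 (edgeR adjusted p = 0.0002). At the other end, Solyc06g009190 stood at 313, 280, 184 and 293 CPM in Leaf FR fruits at 12 h, against 99.3 to 268 CPM in the mornings, ranges that overlapped. Leaf FR leaves had 45.1, 109 and 63.7 CPM at 12 h, against 0.423 to 8.76 CPM, and the difference of fruits minus leaves was -4.02 ± 0.58 (edgeR adjusted p = 2.1e-06). Solyc07g055050 stood at 104, 112, 99.2 and 113 CPM in Leaf FR fruits at 12 h, against 48.1 to 64.1 CPM. Leaf FR leaves had 246, 236 and 325 CPM at 12 h, against 2.18 to 16.1 CPM, a difference of -3.65 ± 0.36 (edgeR adjusted p = 8.6e-10).

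**Figure D4:**
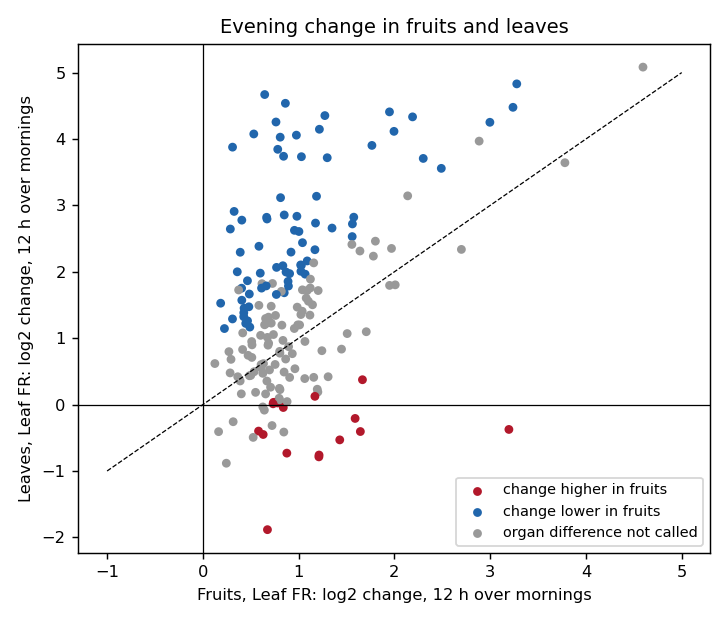
The log2 change from the mornings to 12 h in Leaf FR leaves (vertical axis) against that in Leaf FR fruits (horizontal axis) for the members tested in both organs; the dashed line marks equal change. Colours give the edgeR call of the difference, which was higher in fruits for 17 members and lower for 75.

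Whether FR on the leaves altered the list was asked at each time after 0 h. The samples of 0 h were taken before FR began, so differences at 0 h are not effects of FR. In fruits at 6 h, 0 of the 200 members differed between Leaf FR and No FR (edgeR and DESeq2, adjusted p under 0.05), and 0% of all 18310 genes did in edgeR. The members' log2 differences ran from -0.50 to 1.65 with a median of 0.02. In edgeR 13 members and 619 of all genes passed an unadjusted p of 0.05. The level of the list differed by -0.02, 0.09, -0.02, 0.01, -0.09 and 0.05 (Leaf FR minus No FR, log2) in fruits at 0, 6, 12, 24, 48 and 96 h, given without a test because the No FR fruits of every time but 6 h chose the genes. In leaves it differed by 0.05, -0.03, 0.36, -0.08, -0.04 and -0.04. The 0.36 at 12 h included No FR replicate 2, without which it was -0.04, and the fitted median over members at 12 h fell to 0.02 without that library, against 0.16 with it. The difference between treatments in the evening change of leaves was called for 0 of 199 members in edgeR (0% of all 19346 genes). DESeq2 called 0 members, with 0 of all genes higher and 33 lower. In edgeR 5 members and 721 of all genes passed an unadjusted p of 0.05. The median difference over members was 0.21 with replicate 2 and 0.03 without it.

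Time by time in leaves, edgeR called 0 members at 0 h, before FR began, when 0% of all genes passed. It called 0 members at 12 h (0.00548% of all genes) and 0 members at 24 h (0.188%). The count was also 0 at 48 h (0.0795%) and at 96 h (0.263%). DESeq2 called 2, 0, 4, 1 and 10 members at these 5 times. Among all genes it called 18, 21, 140, 139 and 307 higher and 3, 0, 126, 114 and 132 lower. In edgeR 13, 4, 31, 17 and 34 members passed an unadjusted p of 0.05. So did 552, 230, 1208, 1325 and 1999 of the 17425 to 18235 genes tested. Without Leaf FR leaf 96 h replicate 2, edgeR called 3 members at 96 h. At 6 h, 2 of 192 members were higher in Leaf FR leaves (background 0.321%) and 1 was lower (background 0.0442%). DESeq2 called 14 members at 6 h, 8 higher and 6 lower, against 389 and 121 of all 18085 genes. Solyc08g076730 stood at 38.4, 28.9, 25.1 and 29.3 CPM in Leaf FR leaves at 6 h, against 7.02, 12.9, 9.89 and 10.4 CPM in No FR leaves, a log2 change of 1.53 ± 0.22 (SE, edgeR adjusted p = 0.037). Solyc04g007690 stood at 27.4, 15.1, 35.0 and 41.7 CPM in Leaf FR leaves, against 8.75, 4.97, 6.55 and 9.72 CPM in No FR leaves (1.92 ± 0.30, edgeR adjusted p = 0.046). Solyc06g008920 stood at 20.9, 16.9, 26.6 and 16.2 CPM in Leaf FR leaves, against 63.6, 38.1, 50.2 and 37.2 CPM in No FR leaves (-1.29 ± 0.20, edgeR adjusted p = 0.046). None of the 3 overlapped between treatments, which their choice by the same comparison favours, and the share of all genes so separated was not computed. These calls were marginal, since leaving out single libraries left 0 to 4 members called, and each gene kept its call in at most 2 of the 8 such fits.

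SUS1 (Solyc12g009300) took more reads than any other member in No FR fruits at 12 h. It stood at 4638, 4486, 3513 and 4768 CPM in Leaf FR fruits at 12 h, against 2690 to 4492 CPM in the 16 Leaf FR mornings, so the groups overlapped. It rose by 0.32 ± 0.10 (log2, SE, 1.25-fold, edgeR adjusted p = 0.019), a call lost without 12 h replicates 1, 2 or 4. Against single mornings the rise was 0.43 ± 0.13 over 0 h and 0.46 ± 0.13 over 48 h (edgeR adjusted p = 0.032 and 0.011), whereas 0.36 ± 0.13 over 24 h and 0.02 ± 0.13 over 96 h did not pass (adjusted p = 0.069 and 0.93). At 96 h it stood at 4492, 3763, 3723 and 4355 CPM in Leaf FR fruits, against 2665, 2944, 1989 and 2452 CPM in No FR fruits. The study's own comparison of treatments lists SUS1 as upregulated in these fruits. The change over 96 h thus cannot tell a small evening rise from a high 96 h level. Low No FR mornings, 96 h among them, helped to choose the gene, so the difference between treatments at 96 h was not tested here. In the No FR fruits that chose it, it stood at 5142, 4260, 4419 and 5926 CPM at 12 h, against 1989 to 3920 CPM in the mornings. Its reads made up 17.4 to 34.4% of those of all 200 genes in the 48 fruit libraries, and 0.022 to 0.325% in the 47 leaf libraries.

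In leaves SUS1 (Solyc12g009300) was higher at 6 h than in the morning. It stood at 31.5, 24.2, 50.4 and 55.7 CPM in Leaf FR leaves at 6 h, against 2.84 to 24.6 CPM in the mornings, a rise of 1.73 ± 0.32 (log2, SE, edgeR adjusted p = 0.00019). No FR leaves had 15.7, 8.92, 18.2 and 11.1 CPM at 6 h, against 2.97 to 14.0 CPM, a rise of 0.74 ± 0.23 (edgeR adjusted p = 0.017) that was lost without 6 h replicate 1 or replicate 3. Every Leaf FR leaf of 6 h was above every No FR leaf of 6 h, but the difference of 1.52 ± 0.29 did not pass the edgeR test (adjusted p = 0.085, and under 0.05 by DESeq2). At 12 h the changes from the mornings, -0.26 ± 0.41 in Leaf FR leaves and 0.49 ± 0.24 in No FR leaves, did not pass (edgeR adjusted p = 0.68 and 0.16). Without replicate 2 of 12 h the change in No FR leaves was 0.36 ± 0.27 (edgeR adjusted p = 0.35), and without 24 h replicate 4 it was 0.62 ± 0.18 and passed (edgeR adjusted p = 0.021). SUS1 was lower at 12 h than at 6 h in Leaf FR leaves, by a log2 change of -1.99 ± 0.52 (edgeR adjusted p = 0.011) that was lost without 12 h replicate 1 (-1.79). In No FR leaves the change between 12 h and 6 h was -0.25 ± 0.31 (edgeR adjusted p = 0.66), or -0.37 ± 0.34 without 12 h replicate 2 (adjusted p = 0.60), which did not pass.

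SlSS1 (Solyc03g083090) was highest at 6 h in both organs. In Leaf FR fruits it stood at 130, 102, 88.9 and 121 CPM at 12 h, against 67.5 to 110 CPM in the mornings, a rise of 0.31 ± 0.08 (log2, SE, edgeR adjusted p = 0.0072) that was lost without 12 h replicate 1. SlSS1 rose by 0.40 ± 0.11 over 0 h, 0.48 ± 0.11 over 24 h and 0.31 ± 0.11 over 48 h (edgeR adjusted p = 0.017, 0.0041 and 0.034). Over 96 h its change of 0.04 ± 0.11 did not pass (edgeR adjusted p = 0.77). At 96 h SlSS1 stood at 93.3 to 110 CPM in Leaf FR fruits, against 66.5 to 90.2 CPM in No FR fruits. The study's own comparison of treatments lists SlSS1 as upregulated in these fruits, a difference not tested here. The change over 96 h thus cannot tell a small evening rise from a high 96 h level. At 6 h SlSS1 stood at 157, 131, 151 and 153 CPM in Leaf FR fruits, above every morning and every 12 h library of these fruits. It was lower at 12 h than at 6 h by a log2 change of -0.48 ± 0.11 (edgeR adjusted p = 0.0098). Leaf FR leaves had 75.0, 45.1 and 92.4 CPM at 12 h, against 14.9 to 30.7 CPM in the mornings, a rise of 1.29 ± 0.22 (edgeR adjusted p = 0.00014). No FR leaves had 30.6, 15.2, 70.1 and 65.7 CPM in replicates 1 to 4 of 12 h, against 11.7 to 27.6 CPM. The rise there was 0.81 ± 0.25 (edgeR adjusted p = 0.025), 1.05 ± 0.24 without replicate 2, and not called without replicate 3 (0.54) or replicate 4 (0.55). At 6 h the rise over the mornings was 2.59 ± 0.19 in Leaf FR leaves and 2.83 ± 0.23 in No FR leaves, against 0.79 ± 0.08 in Leaf FR fruits.

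**Figure D5:**
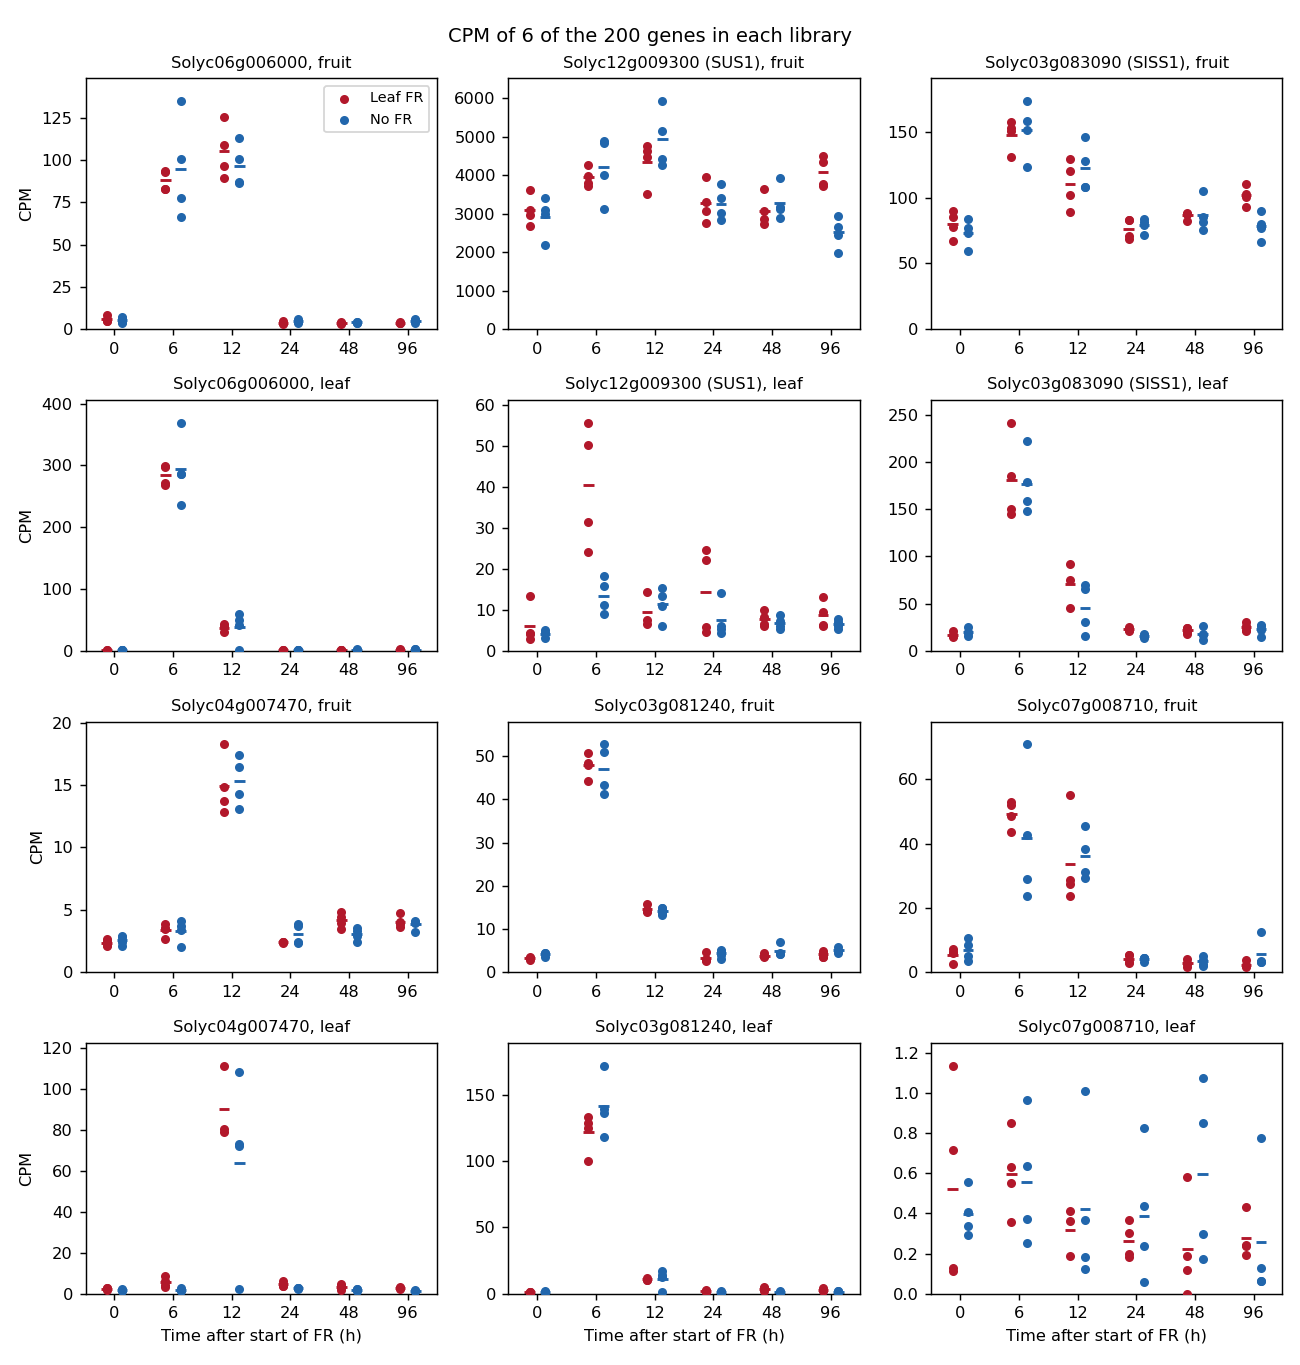
CPM (linear axes from 0, a separate scale per panel) of 6 of the 200 genes in every fruit and leaf library against hours after the start of FR, evenly spaced; points are libraries and short lines are group means. Solyc04g007470 is raised at 12 h and not at 6 h, Solyc03g081240 is far higher at 6 h than at 12 h, and Solyc07g008710 is raised in fruits with leaf levels of at most 1.13 CPM.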

How the data were processed

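Per the labels and the study's methods, the authors cleaned paired-end reads, aligned them with Bowtie2 to tomato transcripts of the ITAG4.0 annotation and estimated gene abundance with RSEM. The deposited table of expected counts (34075 genes, 95 libraries) was used, rounded to whole numbers. A second deposited table, of the authors' normalized values, was treated as a score and served only to redraw the list. The 200 genes and all lists were chosen with earlier results of these data known.

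CPM were counts divided by the library total. Tests used edgeR 4.0.16 in R 4.3.3 (TMM scaling, a minimum of 10 counts in 3 of the fitted libraries, quasi-likelihood F-tests, Benjamini-Hochberg adjustment over all genes tested, threshold 0.05), with all 6 times of an organ and treatment in 1 fit and the 4 mornings weighted equally. Treatments were compared per time, organs by an interaction. The scripts were tested on simulated data. Libraries of 1 group never agreed within counting noise (over 141 pairs, chi-square was at least 5.37 times its degrees of freedom). Named genes were to be the first 10 of the list, members named by the study, and up to 5 with the largest changes past the threshold per comparison; as the identifiers carry no names, at most 2 in each direction are printed per comparison. Solyc09g092130, Solyc03g081240, Solyc07g045180 and Solyc01g096420 were singled out after their values were seen. Sampling depth limits genes of a few counts.

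The files pair no identifiers with names and the reference table matched none of them, so gene classes, tissue markers and promoter or protein sequences were not used here. Alternatives were DESeq2 1.42.0, DESeq2 size factors, no low-count filter, the replicate number as a block, each library left out, single mornings, 6 h left out, and both treatments in 1 fit. The comparison of 12 h with 6 h in leaves, the TMM-scaled level, the block of leaf and fruit of 1 time, and the counts without No FR leaf 12 h replicate 2 were added after seeing the data.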

Additional observations from a re-analysis of the deposited data

Results flagged for a closer look

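Over the 23 groups of 4 libraries in which the level of the list was examined, No FR leaf 6 h replicate 3 lay apart from the other libraries of its group, at a mean log2(CPM + 1) of 4.92; chance alone gives about 1 such case in 20 groups. It lay close to the other 3, at 5.05 to 5.07. No FR leaf 12 h replicate 2 lay much further off, at 3.31 against 4.76 to 5.07, but its gap of 0.827 of the range of its group fell just short of the limit for 4 libraries.

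The 18 named genes were examined in the same way, in their 126 groups of 4 libraries of 6 h and 12 h only, and 8 groups had a library apart. In fruits, Solyc07g008710 was high at 55.0 CPM and Solyc08g076730 at 72.0 CPM in Leaf FR 12 h replicate 3, Solyc09g092130 was high at 18.9 CPM in Leaf FR 6 h replicate 3, and Solyc06g009190 lay at 424 CPM in No FR 6 h replicate 2. In No FR leaves, Solyc01g096420 lay at 11.3 CPM in 12 h replicate 1, Solyc06g009190 at 3.82 CPM in 12 h replicate 2, Solyc04g049670 at 210 CPM in 6 h replicate 3 and Solyc09g092130 at 26.5 CPM in 6 h replicate 2. About 1 group in 20 is found by chance.

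The evening change differed between organs, by the edgeR interaction test, for 13 of the 18 named genes, several of which were chosen for this difference. As log2 change in Leaf FR fruits minus that in Leaf FR leaves, it was 3.57 for Solyc07g008710, 2.59 for Solyc12g040790 and 2.00 for Solyc04g049670. It was -4.02 for Solyc06g009190, -3.65 for Solyc07g055050, -2.12 for Solyc04g007470, -1.88 for Solyc09g092130, -1.55 for Solyc06g005680, -1.36 for Solyc08g076730, -1.22 for Solyc01g005300, -1.14 for Solyc07g045180, -1.06 for Solyc06g008920 and -0.95 for SlSS1 (Solyc03g083090). The difference for SlSS1 did not pass without Leaf FR leaf 12 h replicate 3, where it was -0.69, and that for Solyc06g008920 did not pass without Leaf FR fruit 12 h replicate 2 (-0.90) or 4 (-0.97), without Leaf FR leaf 12 h replicate 2 (-0.88), or with leaf and fruit of the same time and number as a block (-1.10).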

How the results depend on the processing

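No recomputed value past the threshold, before or after, reversed in direction; medians near 0 that passed no test could change sign. Of the total counts of members called per comparison and the overlaps of the list, 412 recomputed values stayed within 1.5 times the reported count and 13 did not. These concern members called between Leaf FR and No FR leaves: at 0, 6, 24, 48 and 96 h DESeq2 called 2, 14, 4, 1 and 10, against 0, 3, 0, 0 and 0 in edgeR, and leaving out single libraries gave 0 to 4 at 6 h and 0 to 3 at 96 h. The cause was not tested. With the replicate number as a block, 6 were called at 6 h, against 172 higher and 27 lower among all genes. Among the counts in a single direction and the changes of named genes, 2043 recomputed values kept their reading. Of the rest, 44 counts moved beyond 1.5 times or to or from 0, 41 calls were lost and 3 were gained. Replicate numbers did not pair the samples (correlations of same-numbered deviations from -0.44 to 0.44 in Leaf FR fruits, median -0.01). For leaf and fruit of the same time and number, the correlations were -0.16 to 0.18 (median 0.04, against -0.02 for other numbers). Correlations between organs cannot show whether the numbers mark shared plants. Under the block by replicate number 186 members were higher at 12 h in Leaf FR fruits, 126 in Leaf FR leaves and 108 in No FR leaves. Of all genes 2884, 2522 and 1767 were higher, in the same order. Leaving out single libraries gave 177 to 190 in Leaf FR fruits and 115 to 140 in Leaf FR leaves. Against the next morning alone 167, 118 and 78 were higher in Leaf FR fruits, Leaf FR leaves and No FR leaves. Among all genes 1017, 1921 and 883 were, in the same order. The list itself shared 166 to 193 of its 200 genes with lists drawn under other settings: 186 from the authors' normalized table, 191 with TMM-scaled CPM, 169 and 173 with a minimum of 1 or 10 CPM, and 166 to 183 with single libraries left out. Scaling by DESeq2 size factors moved the median of all genes by at most 0.02. One evening, and 3 to 4 libraries a group, limit what these samples can show about a daily cycle.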
